A study of Homo sapiens with 22 samples.

Results

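Broad H3K4me3 domains are stretches of chromatin in which the promoter mark H3K4me3 runs on for many kilobases instead of ending beside a start site. In TC-32, an established Ewing sarcoma cell line, 351 such domains were found among 12984 H3K4me3 regions shared by all 4 H3K4me3 peak lists, and among 20727 merged regions of any list. They were chosen by merging the peaks of the 4 lists that overlapped by at least 1 bp on chromosomes 1 to 22 and X and keeping merged regions of 8 kb or more found in all 4 lists. Merged width and presence in the 4 lists thus chose the members, and both are given below as description. The union of the lists sets the merged width, so whichever list reached farthest counted. The cells had received siRNA at 20 nM by reverse transfection, either siNEG, a negative control, or siFLI1, which targets the FLI1 sequence retained in the EWSR1::FLI1 fusion of these cells. Each arm had 2 lists for H3K4me3, 2 for H3K27ac, 2 for the transcription factor ETS1 and 1 for a separate H3K27ac antibody labelled ab4729. All samples were of this single line, and the labels do not say whether replicates were separate transfections, so the spread between them may be technical.

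H3K4me3 is laid down at active promoters by the SET1 and MLL methyltransferase complexes, which are drawn to unmethylated CpG-rich DNA. The widest domains of a cell type are known to mark genes of its identity, among them developmental transcription factors and tumour suppressors. H3K27ac marks active promoters and enhancers, and wide stretches of both marks often lie over the same genes. EWSR1::FLI1 joins a transactivating domain to an ETS DNA-binding domain and is known to bind GGAA repeats as well as single ETS sites, while ETS1 is a wild-type member of the same factor family.

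On chromosomes 1 to 22 and X, to which all peak counts refer, the H3K4me3 lists held 18914 and 19720 peaks (siNEG) and 18344 and 18423 (siFLI1), and read depth was not used because the files hold peaks only. Peaks of the 2 siNEG lists shared 82.1% of their joint base pairs, those of the 2 siFLI1 lists 82.9%, and pairs of lists across arms 76.9% to 78.4%. The H3K27ac lists held 60027 to 65501 peaks and the ETS1 lists 302 and 208 (siNEG) against 1633 and 2635 (siFLI1). The heights of the 2 siFLI1 ETS1 lists, recovered from their deposited p-values, differed by less than sampling noise (chi-square of 0.426 per degree of freedom over 480 regions), and those lists were counted as 1 sample. The 2 siFLI1 H3K4me3 lists did not differ beyond that noise (0.986 per degree of freedom), and the 2 siFLI1 H3K27ac lists differed by slightly less than it (0.969, lower-tail chi-square p = 0.0029). These were kept as 2 lists each, and H3K27ac tests are also given with the siFLI1 pair as 1 sample. Of 10 Ewing sarcoma marker genes, 10 had a start site in a shared H3K4me3 region, against 0 of 4 blood, 1 of 4 epithelial (KRT8), 1 of 3 endothelial (KDR), 0 of 3 skeletal muscle and 0 of 2 hepatocyte markers.

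The sequences below show what kind of DNA starts transcription inside these domains. The first 4 are the 200 bases before the start of developmental transcription factor genes with some of the widest domains, and the fifth is that of H2AX, whose domain had the largest relative fall in covered width. CG dinucleotides are in capitals, and each stretch is read 5′ to 3′ on the strand of its gene from RefSeq promoters of GRCh38.p14. They lie at chr20:21522690-21522889 (minus strand, NKX2-2), chr14:99272198-99272397 (minus, BCL11B), chr14:56810480-56810679 (minus, OTX2), chr6:98834374-98834573 (plus, POU3F2) and chr11:119095466-119095665 (minus, H2AX), and overlap no annotated exon.
NKX2-2: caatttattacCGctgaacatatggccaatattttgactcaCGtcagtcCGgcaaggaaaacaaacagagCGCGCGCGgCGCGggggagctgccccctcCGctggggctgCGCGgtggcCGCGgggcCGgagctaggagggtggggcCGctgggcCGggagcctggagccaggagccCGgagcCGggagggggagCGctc
BCL11B: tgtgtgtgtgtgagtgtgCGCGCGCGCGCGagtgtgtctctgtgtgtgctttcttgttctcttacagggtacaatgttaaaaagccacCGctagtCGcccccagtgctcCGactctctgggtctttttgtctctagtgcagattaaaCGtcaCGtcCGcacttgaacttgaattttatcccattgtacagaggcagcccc
OTX2: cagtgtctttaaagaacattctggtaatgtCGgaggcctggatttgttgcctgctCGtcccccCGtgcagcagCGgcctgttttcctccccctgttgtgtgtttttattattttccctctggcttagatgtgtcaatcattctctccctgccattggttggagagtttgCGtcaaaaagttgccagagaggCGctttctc
POU3F2: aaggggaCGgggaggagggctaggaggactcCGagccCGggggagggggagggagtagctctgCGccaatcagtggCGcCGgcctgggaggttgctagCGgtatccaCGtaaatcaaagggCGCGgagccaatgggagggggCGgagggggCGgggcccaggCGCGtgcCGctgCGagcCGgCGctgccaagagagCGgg
H2AX: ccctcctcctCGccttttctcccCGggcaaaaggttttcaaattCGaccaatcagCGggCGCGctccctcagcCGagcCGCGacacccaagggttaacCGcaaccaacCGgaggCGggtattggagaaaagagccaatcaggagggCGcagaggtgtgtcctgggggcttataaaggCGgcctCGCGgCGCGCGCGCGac
CG occurred 20 times at NKX2-2, 12 at BCL11B, 6 at OTX2, 19 at POU3F2 and 21 at H2AX. Over 771 RefSeq promoters whose start lay in a broad domain the median was 17 CG per 200 bases, against 19 over 15322 in any shared region and 9 over all 35116. At least 1 CG was present in 99.1%, 99.6% and 92.0% of these promoters, so OTX2, with 6, stood at the 10th percentile of the broad-domain promoters (6) and H2AX above their median.

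GGAA repeats are shown next because the fusion is known to bind them. Runs of 4 or more GGAA units, searched on both strands, lay inside 5 of the 351 domains (1.42%), against 0.562% of all shared regions, which are narrower. Per Mb of sequence there were 1.95 runs in broad domains and 1.70 in shared regions of 2 to 8 kb. The 2 stretches below, from hg38 and read on the plus strand with the run in capitals, are from the domain at FEZF1, a zinc finger factor of forebrain development (chr7:122303443-122303566), and from the widest domain, at the long noncoding RNA LINC00355 (chr13:64087763-64087846). FEZF1 was picked after its values were seen, as the domain with the longest run, of 16 units.
FEZF1: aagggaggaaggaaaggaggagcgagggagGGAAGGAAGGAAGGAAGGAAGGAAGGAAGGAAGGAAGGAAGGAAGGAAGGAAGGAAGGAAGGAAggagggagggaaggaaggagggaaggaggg
LINC00355: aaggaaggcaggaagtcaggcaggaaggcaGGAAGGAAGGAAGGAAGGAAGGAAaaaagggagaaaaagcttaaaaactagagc
The 5 domains held 7 runs. The others were a second run at FEZF1 (5 units), a second at LINC00355 (4 units), and runs at CCDC47/DDX42 (8 units), TMPO (8 units) and CREB3L4/CRTC2/SLC39A1 (4 units), named because they hold a run. In all 5 of these domains both siFLI1 lists covered less than both siNEG lists, in a set where 252 of 351 domains did so. At FEZF1 the covered widths were 13343 and 12848 bp in siNEG and 12306 and 12282 bp in siFLI1.

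The domains had a median merged width of 9143 bp, from 8000 bp (GYS1/RUVBL2) to 25228 bp (LINC00355), and together spanned 3.58 Mb. Just inside the limit were GYS1/RUVBL2 at 8000 bp, FADS1/FADS2 at 8005 bp and SMAD6 at 8011 bp, and just outside it RBBP4/ZBTB8OS at 7998 bp, RUSC1 at 7998 bp and RETREG3/TUBG1 at 7987 bp. A limit of 6 kb would have kept 1477 regions and one of 10 kb 126. The covered widths of the 12 widest domains are drawn by list below.

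**Figure D1:**
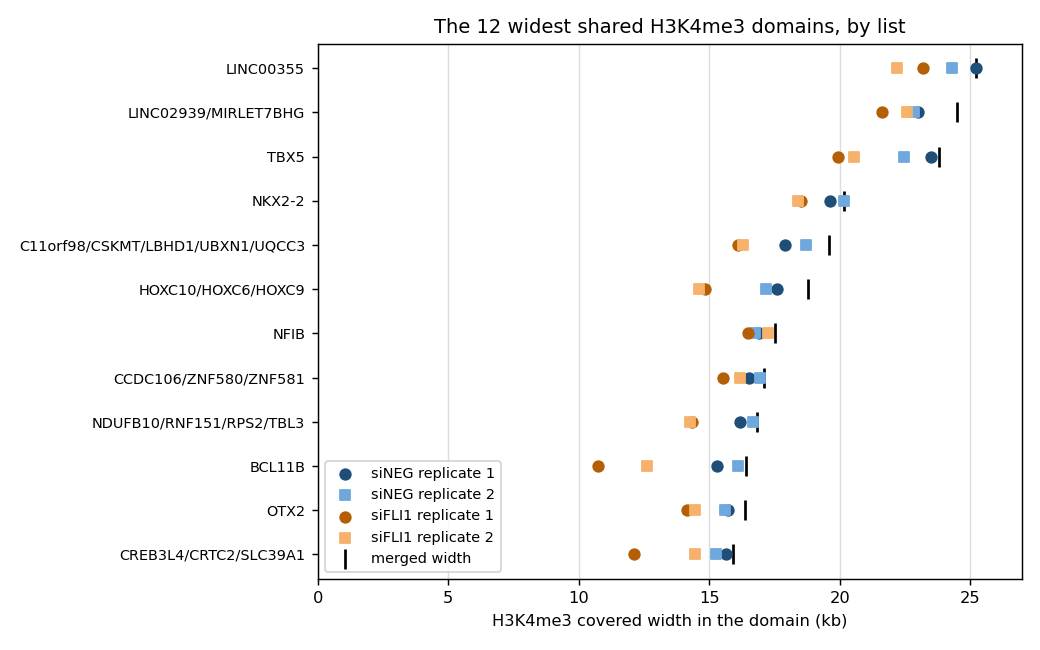
H3K4me3 covered width in kb (x axis) in the 12 domains with the widest merged width (y axis), with circles and squares for the 4 lists and a vertical tick for the merged width. The widest runs from 22194 to 25218 bp over the lists at LINC00355, and at NFIB the 2 arms overlap.

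Of the 12 widest domains, 5 lay at transcription factor genes of the developmental lists. TBX5, a T-box factor of heart and forelimb development, had a domain of 23796 bp (chr12:114391773-114415568). The lists covered 23478 and 22449 bp of it in siNEG and 19918 and 20546 bp in siFLI1. NKX2-2, a homeobox factor used as a diagnostic marker of Ewing sarcoma, had a domain of 20148 bp (chr20:21505147-21525294). The siNEG lists covered 19635 and 20148 bp there and the siFLI1 lists 18529 and 18406 bp. At both genes, both siFLI1 lists were below both siNEG lists. A domain of 18799 bp in the HOXC cluster held start sites of HOXC6, HOXC9 and HOXC10, which set position along the body axis. OTX2, a homeobox factor of forebrain development, had 16351 bp and BCL11B, a zinc finger factor of neurons and T cells, 16388 bp. The other wide domains lay at long noncoding RNA genes (LINC00355, and LINC02939/MIRLET7BHG, which hosts let-7 miRNAs), at NFIB, a nuclear factor I gene, and at clusters of closely spaced genes such as NDUFB10/RNF151/RPS2/TBL3.

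Developmental regulators held a larger share of the broad domains than of shared H3K4me3 regions at large. A start site of a gene in any of 6 developmental lists lay in 44 of 351 domains, 12.5% (95% exact interval 9.26% to 16.5%, for counting only), against 3.14% of all shared regions and 3.11% of those of 2 to 8 kb. Among domains with a single protein-coding gene the share was 21.5%, against 3.61% of single-gene regions of 2 to 8 kb. The 44 domains held 49 of the 653 genes of these lists. Homeobox and paired box factors had 22 of 177 genes in 17 domains (among them NKX2-2, OTX2, POU3F2, PAX3, MEIS1, DLX2 and 10 HOX genes). A list of mainly zinc finger developmental factors had 9 of 87 genes (among them BCL11B, SALL1, NR2F2, ZIC2 and the AP-2 factor TFAP2A, which is no zinc finger protein), and SOX, forkhead, T-box and GATA factors had 5 of 85 (TBX5, TBX3, SOX1, SOX6 and GATA2). Signalling genes contributed 9 of 221 (WNT5A, EFNB1, PTCH1 and FZD1 had the widest), basic helix-loop-helix factors 3 of 46 (HAND2, HES7 and ID2) and immediate early and ETS factors 1 of 37 (IER2). Widths at 6 kb gave a developmental share of 6.77% and at 10 kb of 16.7%. The SOX6 domain held the start of transcripts of SOX6 and C11orf58 that are not annotated as coding.

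Other gene classes were present as well. Of 76 cytosolic ribosomal protein genes, 14 had a start site in a broad domain, each in a domain of its own, among them RPS2, RPL7A, RPL23A and RPLP2, and their domains made up 3.99% of the members against 0.608% of shared regions. Proteasome and mitochondrial genes contributed 16 of 228 in 15 domains, 4.27% of members against 1.77% of shared regions, and chromatin regulators 12 of 125 (3.42% against 1.07%). Tumour suppressors in broad domains were CDKN1B and CDKN2C, which encode cyclin-dependent kinase inhibitors, and ARID1A, a BAF complex subunit, 3 of 22 genes. From a list of 12 genes that the fusion is known to raise, 3 lay in broad domains (NKX2-2, BCL11B and CCND1), and from a list of 12 that it is known to lower, 0 did. Of the first list 12 genes, and of the second 10, had a start site in a shared region, as did 12413 protein-coding genes in all, of which 604 had one in a broad domain. A wider region also holds more start sites, and the part of this in these shares was not tested.

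A broad domain often spanned neighbouring genes. A single protein-coding start gene lay in 163 domains, 2 in 130, 3 or more in 48 and none in 10, whereas 72.6% of all shared regions held 1. In all, 604 of 19962 annotated protein-coding genes had a start site inside a broad domain. The 10 domains with no coding start included those at the noncoding RNA genes LINC00355, NEAT1, MALAT1/TALAM1, SNHG5 and MIR3663HG. In the 163 single-gene domains, the mark ran a median of 6932 bp downstream of the start and 2306 bp upstream, and the downstream side was the longer in 148 of them (90.8%), against 96.5% of single-gene regions of 2 to 8 kb. Base composition was close to that of narrower regions: median GC was 50.3% in broad domains and 50.5% in regions of 2 to 8 kb, and the observed over expected CpG ratio was 0.515 and 0.566. Within the broad domains, the CpG ratio was higher at developmental genes (median 0.640, 44 domains) than elsewhere (0.502, 307 domains).

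The depletion of the fusion was the contrast of the study, and covered width inside the domains was lower in both siFLI1 lists than in both siNEG lists. The lists covered 3.36 and 3.39 Mb of the 3.58 Mb in siNEG and 2.97 and 3.05 Mb in siFLI1, means of 3.37 ± 0.0217 and 3.01 ± 0.0554 Mb (SD, n = 2 each), a difference of -0.16 on the log2 scale. In shared regions of 2 to 8 kb the same difference was -0.09. No test is given, because the same widths chose the domains and the choice bears on the direction. When domains were instead chosen on the 2 siNEG lists alone, 297 qualified and the difference was -0.18. When they were chosen on the 2 siFLI1 lists alone, 157 qualified and the difference was gone, at 0.00051 (1.54 and 1.54 Mb against 1.53 and 1.56 Mb). In the 141 domains with 8 kb or more covered in every list it was -0.12. The numbers of single peaks of 8 kb or more, which need no merging, were 184 and 207 in siNEG and 100 and 118 in siFLI1. In siFLI1 the domains were also cut into more peaks, a mean of 2.01 and 1.90 per domain against 1.75 and 1.72.

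Per domain, both siFLI1 widths lay below both siNEG widths in 252 of 351 (71.8%), where 37.2% of all shared regions did so, and above both in 22 (6.27%), where 17.3% did so. With a further requirement that the larger mean be at least 5/4 of the smaller, 58 domains were lower (16.5%, where 12.3% of all shared regions were) and 4 higher (1.14%, where 8.73% were). After each list was divided by its own cover of regions of 2 to 8 kb, 168 domains were lower (47.9%, against 23.0% of all shared regions) and 65 higher (18.5%, against 29.6%). These shares carry the same dependence on how the members were chosen. The median log2 difference was -0.16 over the 351 domains and -0.07 over all shared regions. The plot of mean widths by arm shows these domains against the line of equal width.

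**Figure D2:**
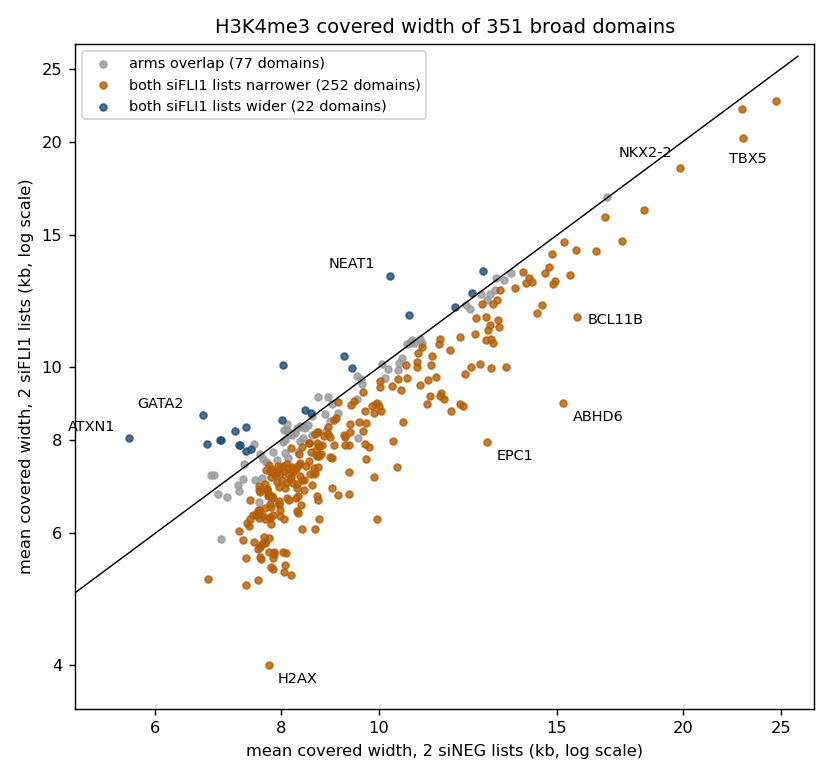
Mean covered width over the 2 siFLI1 lists (y axis) against the 2 siNEG lists (x axis), both in kb on log scales, for 351 broad domains, with the line of equal width. The 252 domains below in both siFLI1 lists are orange, the 22 above are blue and the 77 with overlapping arms grey, and H2AX, ABHD6 and EPC1 lie farthest below the line.

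The largest relative fall was at H2AX, which encodes the histone variant phosphorylated at DNA breaks (chr11:119088313-119096562). The siNEG lists covered 7724 and 7823 bp and the siFLI1 lists 3867 and 4133 bp, a log2 difference of -0.96. ABHD6, a lipase gene, went from 15277 and 15184 bp to 8327 and 9602 bp (-0.77). EPC1, a subunit gene of the NuA4 acetyltransferase complex, went from 12953 and 12659 bp to 7479 and 8430 bp (-0.69). At each of these genes the arms were far apart relative to the gap between their 2 lists. ITGB2, the beta-2 integrin gene, had 10007 and 9922 bp against 6461 and 6074 bp (-0.67). The next in size were CDCA3/USP5, at a cell division gene and a deubiquitinase gene (-0.63), and TACC3/TMEM129, at a mitotic spindle gene (-0.59). At all 6 domains the widest single peak was also narrower in siFLI1.

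Domains that were wider in both siFLI1 lists were fewer. ATXN1, the ataxin-1 gene, went from 5709 and 5602 bp in siNEG to 8052 and 8019 bp in siFLI1 (log2 difference 0.51). NEAT1, the noncoding RNA that scaffolds paraspeckles, went from 10449 and 10074 bp to 13039 and 13453 bp (0.37). GATA2, a zinc finger factor of blood progenitors, went from 6559 and 6816 bp to 8648 and 8615 bp (0.37), and its domain lay inside the gene, downstream of the outermost start. In these 3 domains the arms did not overlap. SLC38A2, an amino acid transporter gene (0.32), TXNIP, the thioredoxin-interacting protein gene (0.22), and ZNF217 (0.20) followed. Covered width passed 8 kb in both siFLI1 lists and in neither siNEG list at 4 domains (GATA2, IRF2BP2, ZNF608 and ATXN1), and in both siNEG lists and neither siFLI1 list at 46.

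**Figure D3:**
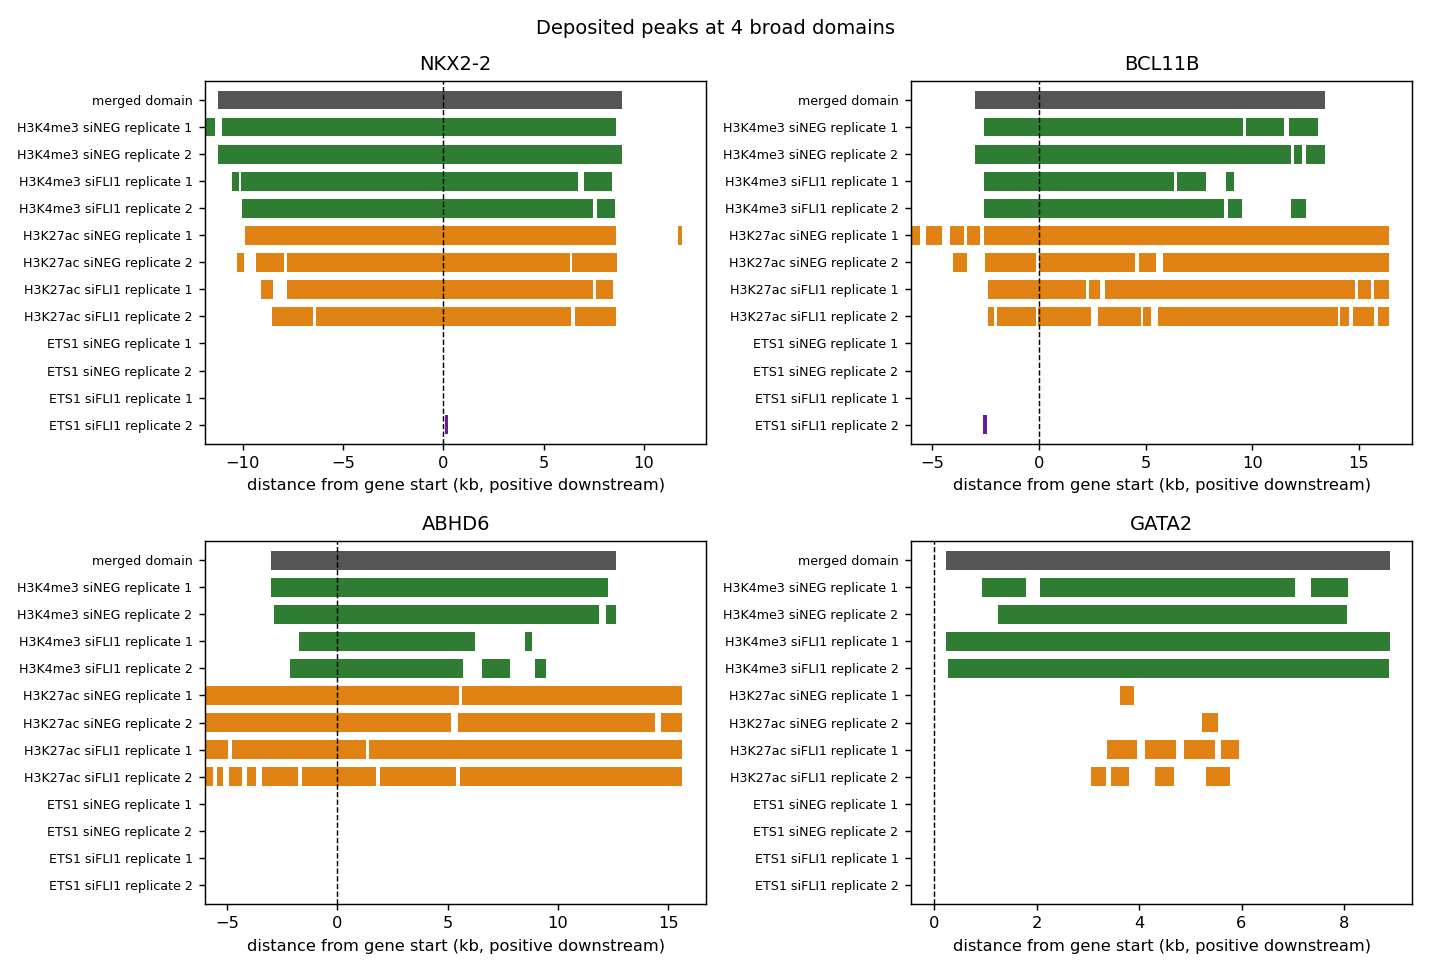
Deposited peaks of each list (rows) at 4 broad domains, by distance in kb from the outermost annotated start of the gene, with green bars for H3K4me3, orange for H3K27ac, purple for ETS1 and grey for the merged domain. H3K4me3 ends earlier downstream in both siFLI1 lists at BCL11B and ABHD6 and reaches farther at GATA2, and H3K27ac at ABHD6 spans nearly the whole domain in all 4 lists.

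All 3 broad domains at genes that the fusion is known to raise were narrower in both siFLI1 lists, as were 71.8% of all broad domains. BCL11B had 15303 and 16114 bp in siNEG and 10720 and 12630 bp in siFLI1, a log2 difference of -0.43. CCND1, the cyclin D1 gene (chr11:69636356-69649185), had 12761 and 12419 bp against 9812 and 10391 bp, a difference of -0.32. NKX2-2, given above, differed by -0.11. This list was chosen with results of these data known, and its direction is therefore no independent evidence.

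The 44 domains at developmental genes were divided. Both siFLI1 lists were lower in 24, higher in 6 and overlapping with siNEG in 14, with a median log2 difference of -0.07, against -0.17 for the other 307 (228 lower and 16 higher). Among the 17 homeobox domains 13 were lower and 1 was higher (DLX2). Of the 9 domains of the mainly zinc finger list 3 were lower and 3 higher, the latter TFAP2A, an AP-2 factor of the neural crest (10672 and 10755 bp against 11829 and 11678 bp), NR2F2 and SP1. Of the 3 basic helix-loop-helix domains 0 were lower and 0 higher. EFNB1, which encodes the ligand ephrin-B1, had the largest fall of the developmental set on the log2 scale, from 10389 and 10459 bp to 7440 and 7260 bp (-0.50). SALL1, WNT5A, HAND2 and ID2 had overlapping arms.

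Of 14 domains at ribosomal protein genes 12 were lower (85.7%) and 0 higher (median -0.20), and of 15 at proteasome and mitochondrial genes 13 were lower (86.7%) and 0 higher (median -0.28). Over all 351 domains 71.8% were lower and the median was -0.16, and the difference was not tested. At FAU/MRPL49/TM7SF2/ZNHIT2 the widths were 12836 and 12977 bp in siNEG and 10542 and 9419 bp in siFLI1. Chromatin regulator domains had 6 lower and 1 higher of 12, the latter KDM5B, a demethylase of H3K4me3. CDKN2C was among the domains wider in siFLI1 (12526 and 12805 bp against 13337 and 13513 bp) and CDKN1B among those narrower (14059 and 14126 bp against 12654 and 13683 bp). Domains with 2 or more coding genes were lower in 139 of 178 cases and higher in 3, and single-gene domains lower in 107 of 163 and higher in 18. In single-gene domains, the covered width upstream of the start differed by -0.18 and that downstream by -0.13 on the log2 scale.

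H3K27ac played no part in choosing the domains, and they carried more of it than narrower H3K4me3 regions. H3K27ac peaks covered 57.7% and 54.2% of the domains' base pairs in siNEG and 63.6% and 62.3% in siFLI1. In shared regions of 2 to 8 kb the cover was 35.4% and 31.5%, then 40.2% and 38.7%. The excess of broad domains averaged 23.0 points (SD 0.622, n = 4 lists) and was positive in 4 of 4 lists (exact sign-change permutation test, two-sided p = 0.13, the smallest that 4 lists allow). With the siFLI1 lists as 1 sample it was 22.8 points (SD 0.625, n = 3, exact permutation p = 0.25). No broad domain was without H3K27ac in all 4 lists, whereas 10.9% of the 2 to 8 kb regions were. Those regions are shorter (median 4024 bp against 9143 bp), and the part of length in this contrast was not tested. Mean cover reached 90% or more in 44 domains and stayed under 10% in 7, among them HES7 with ALOXE3 and SCD. Cover was higher at developmental genes (80.0% and 74.7% in siNEG, 76.5% and 75.6% in siFLI1) than in the other domains (54.2%, 50.9%, 61.5% and 60.2%). It was also higher in single-gene domains (68.7%, 64.3%, 72.0% and 71.0%) than in those with 2 or more coding genes (46.5%, 43.7%, 54.9% and 53.3%).

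**Figure D4:**
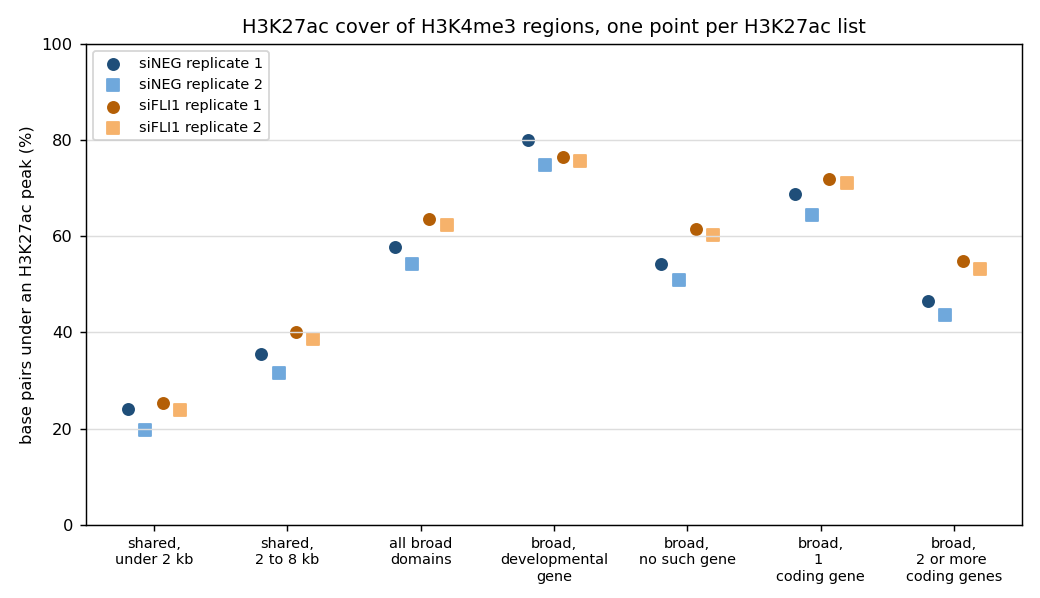
Percent of base pairs under an H3K27ac peak (y axis) in classes of H3K4me3 regions (x axis), 1 point per H3K27ac list. Cover is 54.2% to 63.6% in the broad domains and 31.5% to 40.2% in regions of 2 to 8 kb, and at developmental genes the 2 arms overlap.

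Between the arms, H3K27ac cover of the domains went the other way from H3K4me3 width. It was 6.97 points higher in siFLI1 (pooled SD 1.89, n = 2 lists per arm), with both siFLI1 lists above both siNEG lists, and an exact two-sided permutation test gave p = 0.33, the smallest that 2 against 2 allows, and also that 2 against 1 allows. In regions of 2 to 8 kb the difference was 5.94 points. The siFLI1 H3K27ac lists as a whole covered more of the genome, 69.2 and 65.6 Mb against 63.0 and 58.6 Mb, and the part of this in the result was not tested. Both siFLI1 lists covered more than both siNEG lists in 168 domains (47.9%, against 31.0% of all shared regions) and less in 28 (7.98%, against 7.55%). After each list was divided by its own cover of regions of 2 to 8 kb, the split turned to 79 higher (22.5%, against 18.1%) and 132 lower (37.6%, against 21.2%), and a domain near full cover has no room to rise by such a ratio. In the ab4729 lists, which have no replicate, cover was 23.3% in siNEG and 31.9% in siFLI1, and it was 28.6% in siFLI1 when both lists were held to equal numbers of peaks. The ab4729 cover was higher in siFLI1 at 293 of all 351 domains (83.5%), at 150 of the 168 with more H3K27ac (89.3%) and at 15 of the 28 with less. The siFLI1 list held 51663 peaks and the siNEG list 32738.

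Of the 252 domains narrower in siFLI1, 115 had more H3K27ac (45.6%, close to the 47.9% of all 351) and 23 less. Of the 22 wider domains, 15 had more and 0 less. SLC38A2 rose from 39.3% and 50.8% to 91.7% and 100% H3K27ac cover while its H3K4me3 widened. ZNF608, a zinc finger gene, went from 59.9% and 53.3% to 97.0% and 98.6%. IFT80/SMC4, at a ciliary transport gene and a condensin gene, went from 30.7% and 19.4% to 64.2% and 66.2%, and GEMIN6/SRSF7, at 2 genes of RNA splicing, from 49.6% and 57.7% to 96.4% and 90.7%. In these 4 domains the arms were separated by more than the gap between lists of an arm.

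Of the 28 domains with less H3K27ac in siFLI1, 23 were also narrower, as were 252 of all 351, and the 4 with the largest losses were among those 23. The SOX6 domain went from 77.9% and 72.4% to 43.3% and 48.4% cover, while the ab4729 lists had 15.9% there in siNEG and 22.03% in siFLI1. Its H3K4me3 went from 14717 and 13952 bp to 10882 and 12753 bp. H2AX went from 72.3% and 77.0% to 55.0% and 42.6%, and from 6.388% to 3.503% in the ab4729 lists. EXOSC7/ZDHHC3, at an RNA exosome gene and a palmitoyltransferase gene, went from 73.6% and 58.8% to 46.7% and 39.8%, and from 17.65% to 15.299% in the ab4729 lists. SCD, the stearoyl-CoA desaturase gene, had 16.7% and 22.8% in siNEG and 0% in both siFLI1 lists, while the ab4729 lists had 9.21% in siNEG and 4.06% in siFLI1. ITGB2 and ABHD6, whose H3K4me3 narrowed, were near full cover in all 4 lists (96.7% to 100%), where little change can show. Their ab4729 cover went from 57.97% to 54.05% at ITGB2 and from 35.17% to 20.87% at ABHD6.

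Of the 44 developmental domains, 8 had more H3K27ac in siFLI1 (18.2%) and 9 less (20.5%). Of the other 307, 160 had more (52.1%) and 19 less (6.19%), where 31.0% and 7.55% of all shared regions did so. The difference was not tested, and the developmental domains started nearer to full cover. In the ab4729 lists, without replicates, 32 of the 44 had more cover in siFLI1 and 9 less (48.3% of their base pairs in siFLI1 and 41.4% in siNEG), as did 261 and 44 of the other 307. Homeobox domains had 2 higher and 6 lower of 17. NKX2-2 went from 91.6% and 89.5% to 82.9% and 83.5%, and POU3F2, a POU factor of neurons, from 97.5% and 94.3% to 91.8% and 86.9%. The HOXC domain went from 88.6% and 78.2% to 71.9% and 69.6%. In each of these 3 both replicated siFLI1 lists were below both siNEG lists. The ab4729 cover went from 53.45% to 52.99% at NKX2-2, from 54.83% to 56.37% at POU3F2 and from 24.19% to 21.86% at HOXC. GATA2, nearly without H3K27ac in siNEG (3.30% and 3.64%), had 24.8% and 17.2% in siFLI1, and TFAP2A went from 71.4% and 79.5% to 91.5% and 92.0%. The ab4729 lists, at 0% in both arms, showed no peak at GATA2.

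ETS1 summits, the positions of highest ETS1 signal in each peak, lay in 23 and 18 of the 351 domains in siNEG and in 116 and 138 in siFLI1. That was 6.55%, 5.13%, 33.0% and 39.3% of the domains, against 2.06%, 1.36%, 10.8% and 16.1% of all shared regions, which are narrower. Both siFLI1 lists had a summit in 107 domains, 79 of which had no summit in either siNEG list. In 204 domains no list had a summit, and 0 had one in siNEG lists only. The ETS1 lists themselves were also longer in siFLI1. The share of each list's summits that fell in broad domains was 8.94% and 9.13% in siNEG and 8.94% and 7.40% in siFLI1. When each list was held to its 208 strongest peaks, summits lay in 18 and 18 domains in siNEG and 20 and 17 in siFLI1. Per Mb there were 7.54 and 5.30 summits in siNEG and 40.8 and 54.4 in siFLI1, against 5.72, 3.73, 30.9 and 47.7 in regions of 2 to 8 kb. The excess in broad domains averaged 3.89 per Mb (SD 3.81, n = 3 with the siFLI1 lists as 1) and was positive in 3 of 3 (exact two-sided sign-change permutation p = 0.25, the lowest that 3 samples allow).

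**Figure D5:**
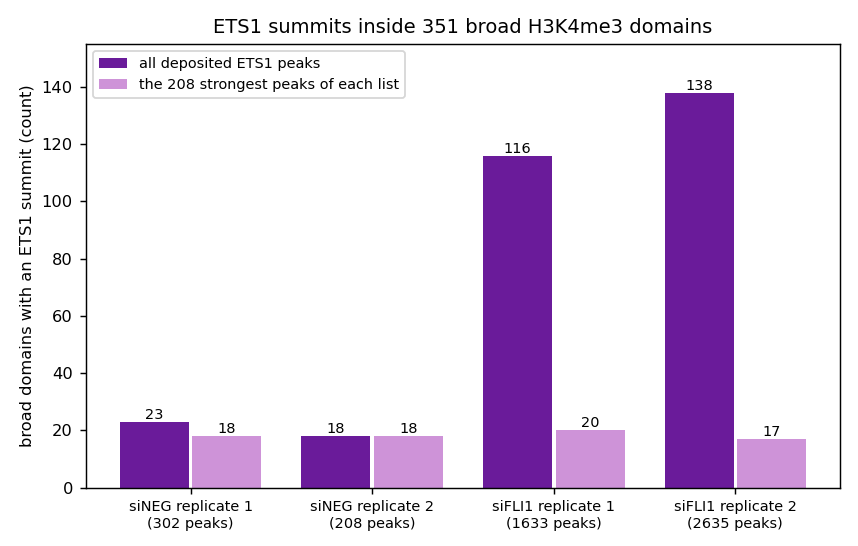
Number of broad domains with an ETS1 summit (y axis) in each ETS1 list (x axis), for all deposited peaks in dark purple and for the 208 strongest peaks of each list in light purple. With all peaks the siFLI1 lists stand at 116 and 138 and the siNEG lists at 23 and 18, and with equal numbers all 4 lie between 17 and 20.

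An ETS1 summit was present in all 4 lists at 11 domains. These were SALL1, a zinc finger factor of kidney and limb development, CDC40/WASF1, TNRC18, DVL2/GABARAP/PHF23, BRD2/HLA-DMA, LMNA/MEX3A, MAF1/SHARPIN/WDR97, RCOR1, ZBTB7B, ZBTB7A and SMAD6. BRD2 reads acetylated histones, RCOR1 is a CoREST subunit, LMNA encodes lamin A/C and SMAD6 is an inhibitory SMAD of BMP signalling. Both siFLI1 H3K4me3 lists were narrower at 6 of the 11 (54.5%, against 71.8% of all broad domains) and wider at 0. RCOR1 had the largest fall, from 7420 and 8268 bp to 5657 and 5480 bp, and SALL1 and TNRC18 had overlapping arms. The ETS motif CCGGAA, searched on both strands within 50 bp of the summits, was present at 22.2% and 0% of the 27 and 19 siNEG summits in broad domains and at 10.3% and 10.8% of the 146 and 195 siFLI1 summits. At windows 500 bp to either side it was present in 9.26%, 7.89%, 5.14% and 5.13%, and in windows of the same length at coding start sites in 9.90%. Of the fusion-raised genes, CCND1 had 1 summit in each siFLI1 list, and NKX2-2 and BCL11B had 1 each in a single siFLI1 list. KDM6B, a demethylase of H3K27me3, had 3 and 6 summits in siFLI1 and none in siNEG.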

How the data were processed

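ChIP-seq peak lists of TC-32 cells were used as deposited (14 lists, each called on its own library, and 8 input libraries not analysed here). Per the submitters' processing notes, cutadapt 4.4, BWA 0.7.17, Picard 2.17.11 and MACS2 2.1.1 were used, with GRCh38, hg38 and dm6 named as builds. The role of dm6 is not given in the sources used here. The authors deposited for each peak a fold enrichment (a ratio) and −log10 p and −log10 q values. These served to rank or filter peaks within a list and to recover the heights compared between replicate lists. Peak ends matched hg38, and genes are from GENCODE 44. Covered width is the number of base pairs of a domain under peaks of a list, so it depends on where the caller ended each peak and on library depth, which is unknown. It carries no test here, since it chose the members, and the exact test planned for it is not given. The members and gene lists were chosen with earlier results of these data known. Domains named are the 12 widest, up to 4 per gene list, the 6 largest width changes and 4 largest H3K27ac changes each way, those with ETS1 in all 4 lists, and those nearest the limit. FEZF1, CCDC47/DDX42, TMPO, DLX2, SP1, KDM5B, IRF2BP2, MALAT1/TALAM1, SNHG5, MIR3663HG and the domain near TRPC4 fall outside this rule and were named after their values were seen, and other members of a gene list are named without values. Pairing of samples by replicate number was not detected and was not used. Alternatives covered peak numbers, −log10 q of 5 or more, width limits and leaving out replicates. Tools were Python 3.11.15, pandas 2.3.3, numpy 2.4.6 and SciPy 1.17.1. The overlap calls were run on simulated lists with narrowed regions, which checks the code and not the rate of false calls.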

Additional observations from a re-analysis of the deposited data

How the results depend on the processing

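The number of broad domains was 351, and became 1477 at 6 kb, 126 at 10 kb, 682 when peaks up to 1 kb apart were merged and 141 when every list had to cover 8 kb. The log2 difference in covered width (-0.16) was gone (0.00051) when members were chosen on the siFLI1 lists alone, a setting added after seeing the data. Without 1 list at a time it ran from -0.18 to -0.14, and with a replicate block it was -0.16. No pairing by replicate number was detected (correlations of deviations 0.036 for width and -0.027 for H3K27ac). The H3K27ac difference with a replicate block was 6.97 points, and 5.20 to 8.74 without 1 list. Settings added after seeing the data gave 92 narrower and 9 wider domains among those covered for 8 kb in every list, and the division by 2 to 8 kb regions gave 65 wider domains. A minimum ratio of 5 to 4 left 58 narrower and 4 wider, and 111 with more and 11 with less H3K27ac. The division by 2 to 8 kb regions gave 132 with less and 79 with more H3K27ac. Without 1 list at a time, 271 to 285 domains were narrower and 31 to 37 wider (37 without siNEG replicate 1 or siFLI1 replicate 1), and 192 to 234 had more and 46 to 75 less H3K27ac (75 without siNEG replicate 2), because fewer lists must then be separated. The ETS1 count in both siFLI1 lists (107) was 15 at equal numbers of peaks. The developmental share (12.5%) was 6.77% at 6 kb and 16.7% at 10 kb. Of 78 alternatives to the main results, 55 were scored as unchanged, which for differences asked only for the same direction. Among these, the log2 difference in covered width was -0.07 after division by regions of 2 to 8 kb and -0.24 for the widest single peak. The ETS1 excess was 1.61 per Mb at equal numbers of peaks, against 3.89 with all peaks.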

Other observations

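Broad domains at noncoding RNA genes differed among themselves. MALAT1/TALAM1, a neighbour of NEAT1, had overlapping arms (log2 difference in covered width of -0.01), whereas NEAT1 was wider in siFLI1 (0.37) and MIR3663HG lower (-0.23). At a domain 105788 bp from the nearest coding start, that of TRPC4, the difference was -0.43. LINC00355, the widest domain, gained H3K27ac cover in siFLI1, from 49.7% and 34.7% to 63.5% and 58.6%, while its H3K4me3 fell from 1 peak in each siNEG list to 3 shorter peaks in each siFLI1 list.

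A GGAA run of 4 or more units lay inside or within 10 kb of 39 of the 351 domains (11.1%), against 7.95% of shared regions of 2 to 8 kb. The stretch searched was longer for a broad domain, and the part of this in the shares was not tested. Inside the regions there were 1.95 and 1.70 runs per Mb. Of these 39 domains, 32 were narrower in both siFLI1 lists, 7 overlapped and 0 were wider, where 252, 77 and 22 of all 351 were. Runs lay that close to 16.6% of single-gene domains and 5.06% of those with 2 or more coding genes. The same widths chose the domains, so this is a description with no test.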
